A study of Danio rerio with 20 samples.

Results

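Zebrafish embryos exposed to SANT-2 were compared with embryos kept in ethanol, by messenger RNA levels at 24 h after fertilization. The comparison rests on 10 of the 20 arrays of the study, 5 per group. The SANT-2 embryos were in 10 µM SANT-2 and the control embryos in 0.1% ethanol, both from 0.5 to 24 h after fertilization. A second exposed group of 5 arrays, in 10 µM cyclopamine over the same hours, is used below at the matched concentration and time. The remaining 5 arrays, of embryos in 10 µM GANT-61 from 0.5 to 24 h, entered the model for its spread and slide terms only and are not compared. Per the labels each array held the RNA of 1 of 5 independent replicates of 100 whole embryos. No strain is given in the labels. The labels give no measured concentrations. They do not say whether the compounds were dissolved in ethanol, so the ethanol content of the exposed groups is not known. A gene was tested where the scanner software called its probe well above background on 4 or 5 of the SANT-2 arrays or on 4 or 5 of the ethanol arrays. This held for 11297 of 14694 probes, which stand for 11269 of 14657 genes after the brightest probe of each gene was kept, and 7790 of them carry a gene symbol.

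Hedgehog ligands are secreted signals that bind patched receptors in the membrane of receiving cells, which frees smoothened, a membrane protein that patched otherwise holds inactive. Active smoothened lets the gli transcription factors switch on target genes. In the zebrafish embryo the pathway patterns the ventral neural tube, directs the first slow muscle fibres of the somites, and acts in the brain, eye, jaw and gut mesenchyme. SANT-2 is a small synthetic molecule and cyclopamine a steroidal alkaloid from a plant, and both are known to bind and block smoothened. The study's title names cyclopamine as a model inhibitor and SANT-2 as a potential disrupter of the pathway, so the comparison asks which genes, and in particular which hedgehog targets, differed in embryos kept in SANT-2.

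The arrays lay on 4 slides, and each slide held SANT-2, cyclopamine and ethanol arrays. Between 10038 and 12610 probes were well above background per SANT-2 array, and between 10725 and 12518 per ethanol array. The mean was 11472 ± 1021 for SANT-2 and 11626 ± 784 for ethanol (SD, n = 5 each; exact two-sided permutation test over 252 arrangements, p = 0.802). The 75th percentile of the signal, to which each array was scaled, was lowest on slide 2, which carried SANT-2 arrays 2 and 3 and ethanol array 3. It was 735 and 762 on these SANT-2 arrays and 698 on this ethanol array, against 1357 to 1456 on the other SANT-2 arrays and 1495 to 2060 on the other ethanol arrays. Markers of the tissues of a whole embryo were read for a call of well above background on all 10 arrays. This held for 24 of 26 tested muscle genes, 15 of 17 floor plate and notochord genes and 22 of 23 eye and lens genes. It held for 13 of 17 neuronal, 9 of 13 erythroid, 16 of 22 somite clock and 9 of 10 heart genes. All 14 vascular and all 16 epidermal genes were so called, beside 9572 of all 11269 tested genes. Tested genes had already passed the brightness filter, which favours high counts. Since whole embryos were extracted, fewer cells of a type and less RNA per cell cannot be told apart in any value below. The number of arrays limits the precision.

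No gene changed after SANT-2 at the threshold used. With limma, slide as a block and Benjamini-Hochberg adjustment, 0 of the 11269 tested genes (0%) had an adjusted p under 0.05 for SANT-2 minus ethanol, and the smallest adjusted p was 0.9997. An unadjusted p under 0.05 was found for 395 genes, against 563 expected if no gene differed. Of these, 281 were higher in SANT-2 embryos (2.49% of tested genes) and 114 were lower (1.01%). The count of genes with an adjusted p under 0.05 was also 0 under each of the 27 alternatives tried. The median difference over all tested genes was 0.025 on the log2 scale, with -0.20 as the 5th percentile and 0.31 as the 95th. By sign alone, 6596 genes were higher and 4673 lower in SANT-2 embryos. Counts of higher and lower genes in the lists below are to be read against that split. The same model with the same arrays of ethanol found 252 genes for cyclopamine, 57 higher (0.506%) and 195 lower (1.73%), and 158 without ethanol array 1 or without cyclopamine array 4. The brightness filter used SANT-2 and ethanol arrays only. Genes bright under cyclopamine alone were thus not tested, which can tilt this split towards lower genes.

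The intervals show which sizes of change these arrays leave possible. The 95% interval of the SANT-2 minus ethanol difference lay within a 2-fold change either way for 10750 genes (95.4%) and within a 1.5-fold change for 8850 (78.5%). Its median half-width was 0.28 on the log2 scale, a 1.21-fold change. The width depended on brightness. With genes in 3 equal classes of brightness, intervals lay within a 2-fold change for 99.4% of the brightest class, 98.3% of the middle class and 88.4% of the dimmest. The spread between the 5 arrays had a median SD per gene of 0.31 for SANT-2 and 0.30 for ethanol on the log2 scale.

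**Figure D1:**
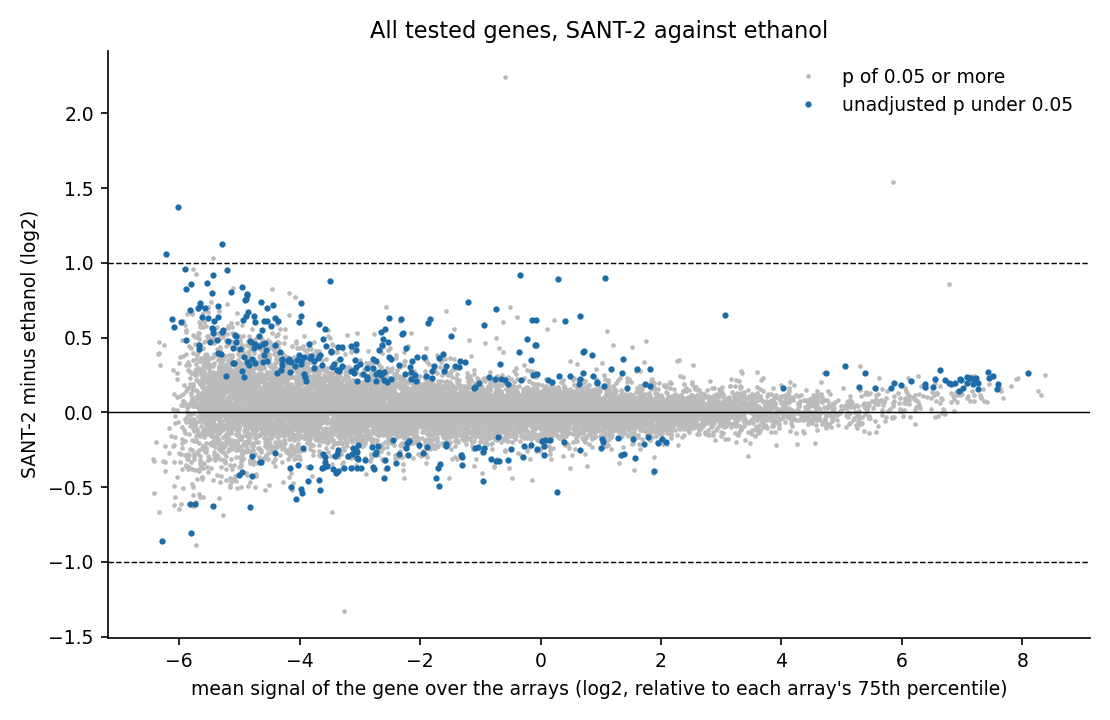
Each point is 1 of the 11269 tested genes, with its mean signal over the SANT-2 and ethanol arrays on the x axis (log2, relative to each array's 75th percentile) and SANT-2 minus ethanol on the y axis (log2). Blue points are the 395 genes with an unadjusted p under 0.05, none of which passed the adjusted threshold, and the dashed lines mark a 2-fold change, which 7 genes reached.

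Levels below are relative signals, that is a probe's signal divided by the 75th percentile of its array, so a level of 1 is that percentile. They compare 1 probe between arrays and not 1 gene with another. Differences are means of log2 values with slide taken into account.

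None of the tested ligand genes of the pathway passed the test. The sonic hedgehog gene shha had relative signals of 3.94, 4.05, 3.46, 3.52 and 2.9 in SANT-2 embryos and 4.18, 4.44, 3.47, 4.33 and 3.30 in ethanol embryos. The groups overlapped, and the difference was -0.13 (95% interval -0.39 to 0.13; limma, adjusted p = 0.9997). Its copy shhb differed by -0.15 (-0.34 to 0.050), and the Indian hedgehog genes ihha and ihhb by 0.049 (-0.42 to 0.52) and 0.23 (-0.18 to 0.63). The probe of dhh, the desert hedgehog gene, was too dim to test.

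The receiving side of the pathway includes smo, which encodes smoothened, the protein that both compounds bind. The smo probe read 2.41, 3.14, 2.52, 1.95 and 2.05 in SANT-2 embryos and 2.51, 2.75, 2.75, 2.36 and 2.18 in ethanol embryos. These ranges overlapped, with a difference of -0.12 (-0.32 to 0.087). The co-receptor genes cdon and gas1b, whose products help bind the ligand, differed by 0.042 (-0.22 to 0.30) and -0.046 (-0.24 to 0.15). Further in the cell, sufu, whose product holds gli proteins back, differed by -0.044 (-0.19 to 0.10), and kif7, a kinesin of the cilium, by -0.084 (-0.23 to 0.064). The transcription factor genes gli2a, gli2b and gli3 differed by -0.061 (-0.29 to 0.17), 0.058 (-0.31 to 0.43) and 0.17 (-0.056 to 0.40).

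Of 44 pathway components listed, 28 had a probe and 25 were tested. None had an unadjusted p under 0.05, 10 were higher and 15 lower in SANT-2 embryos, and their median difference was -0.040, beside 0.025 for all tested genes. All 25 intervals lay within a 2-fold change. The smallest p among them belonged to prkar1aa, a regulatory subunit of protein kinase A, the kinase that marks gli proteins for cleavage. Its relative signals were 0.180, 0.228, 0.172, 0.101 and 0.140 in SANT-2 embryos and 0.180, 0.227, 0.238, 0.128 and 0.168 in ethanol embryos, with overlapping groups and a difference of -0.23 (-0.46 to 0.0040; unadjusted p = 0.0535, adjusted p = 0.9997, limma).

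The genes that respond to the signal were then examined, beginning with the ventral neural tube. nkx2.2a encodes a homeodomain factor of the most ventral progenitors and is switched on by strong hedgehog signalling. It had relative signals of 0.781, 0.623, 0.696, 0.596 and 0.569 in SANT-2 embryos, 0.0356, 0.0349, 0.0831, 0.0341 and 0.0417 in cyclopamine embryos and 0.620, 0.612, 0.782, 0.635 and 0.620 in ethanol embryos. SANT-2 and ethanol arrays overlapped, while all 5 cyclopamine arrays lay far below both. SANT-2 minus ethanol was -0.077 (-0.44 to 0.29), and SANT-2 minus cyclopamine was 3.84 (3.48 to 4.21; limma, adjusted p = 2.29e-09).

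The motor neuron and oligodendrocyte progenitor gene olig2 read 1.38, 1.33, 1.29, 1.16 and 1.07 in SANT-2 embryos, 0.121, 0.171, 0.301, 0.139 and 0.243 in cyclopamine embryos and 1.34, 1.15, 1.40, 1.42 and 1.23 in ethanol embryos. Again only the cyclopamine arrays stood apart among these 15. SANT-2 minus ethanol was -0.16 (-0.51 to 0.20), the lowest of the 24 tested responsive genes, and SANT-2 minus cyclopamine was 2.67 (2.31 to 3.03; limma, adjusted p = 9.76e-08). Without SANT-2 array 1 the olig2 difference from ethanol was -0.30 (unadjusted p = 0.104, limma).

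nkx2.9, a ventral homeobox gene, read 0.103, 0.121, 0.0649, 0.0754 and 0.0981 in SANT-2 embryos, 0.00383, 0.00550, 0.0222, 0.00384 and 0.00292 in cyclopamine embryos and 0.104, 0.0934, 0.0726, 0.0891 and 0.126 in ethanol embryos. The cyclopamine arrays were all not well above background, so the level in SANT-2 embryos was at least 5.76-fold higher than in cyclopamine embryos (limma, adjusted p = 2.98e-05). That bound sets the mean of the 5 SANT-2 arrays against the lowest signal counted as well above background on each cyclopamine array, or the probe's own where it was higher. SANT-2 minus ethanol for nkx2.9 was -0.13, with a standard error of 0.41, the largest of the ventral genes given here. That error pools the spread of all groups, and the cyclopamine arrays, none well above background, ran from 0.00292 to 0.0222. nkx6.1, which marks a broader ventral domain, differed from ethanol by 0.090 (-0.26 to 0.44) and from cyclopamine by 1.67 (1.32 to 2.02; limma, adjusted p = 1.75e-05).

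In the floor plate and gut, foxa differed by 0.022 (-0.33 to 0.37) and foxa2 by -0.053 (-0.28 to 0.17) between SANT-2 and ethanol. Both genes encode forkhead factors of midline and endoderm. In the jaw and gut mesenchyme, foxf1, a forkhead gene of that tissue, had relative signals of 0.137, 0.0893, 0.109, 0.111 and 0.0896 in SANT-2 embryos, 0.0160, 0.0251, 0.0291, 0.0217 and 0.0298 in cyclopamine embryos and 0.116, 0.102, 0.109, 0.112 and 0.0956 in ethanol embryos. The cyclopamine arrays lay below all the others, and the difference between SANT-2 and ethanol was -0.0034 (-0.36 to 0.36). Further mesenchymal forkhead genes, foxl1 and foxf2a, differed by 0.14 (-0.23 to 0.50) and 0.076 (-0.82 to 0.97), and nkx3-2, a gene of the jaw joint and sclerotome, by -0.025 (-0.56 to 0.51). In the forebrain and eye, nkx2.1 differed by 0.0030 (-0.28 to 0.29), nkx2.4b by 0.027 (-0.18 to 0.23) and pax2a, a gene of the optic stalk, by -0.042 (-0.32 to 0.24). Cyclopamine minus ethanol did not pass for pax2a (0.036; limma, adjusted p = 0.922) or nkx2.1 (-0.47, adjusted p = 0.0740). It passed for nkx2.4b (-0.50; limma, adjusted p = 0.00718). The engrailed gene en1a, which marks the muscle pioneer cells of the somite among other sites, differed by -0.13 (-0.86 to 0.59), with 0.41, -0.77, -0.18 and -0.0080 on slides 1 to 4.

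The feedback genes of the pathway were thinly covered. hhip, which encodes a decoy that binds ligand, differed by 0.093 (-0.38 to 0.57), and its difference was -0.12 without SANT-2 array 1. gli1 was too dim to test, with relative signals of 0.0149, 0.0542, 0.0109, 0.0203 and 0.0111 in SANT-2 embryos and 0.0213, 0.0198, 0.00719, 0.0151 and 0.0118 in ethanol embryos.

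Of the 30 responsive genes listed, 25 had a probe and 24 were tested. None had an unadjusted p under 0.05 for SANT-2 minus ethanol, 12 were higher and 12 lower, and their median difference was -0.0013, beside 0.025 over all tested genes. The mean of the 24 was 0.23, -0.051, -0.042 and -0.10 on slides 1 to 4, so only slide 1, with SANT-2 array 1, was positive. Over all tested genes these means were 0.12, -0.056, 0.051 and 0.041. The differences ran from -0.16 (olig2) to 0.23 (sim1a), and all intervals but that of nkx2.9, 23 of the 24, lay within a 2-fold change. Against cyclopamine at the same concentration and time, 14 of the 24 were higher in SANT-2 embryos at an adjusted p under 0.05 (1.43% of all tested genes were) and 0 were lower (0.169% of all tested genes were). Against ethanol, 15 of the 24 were lower under cyclopamine (1.73% of all tested genes were) and 0 higher. The list was chosen with earlier results of these data known, so these counts are a description. The mean SANT-2 minus cyclopamine difference over the 24 tested list members was 1.24 in a fit of the SANT-2 and cyclopamine arrays alone. It was 0.74 with a model-based background correction fitted on 500 quantiles. With that correction fitted on all spots, which collapsed the signal range of cyclopamine arrays 1 and 3, it was -0.073.

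**Figure D2:**
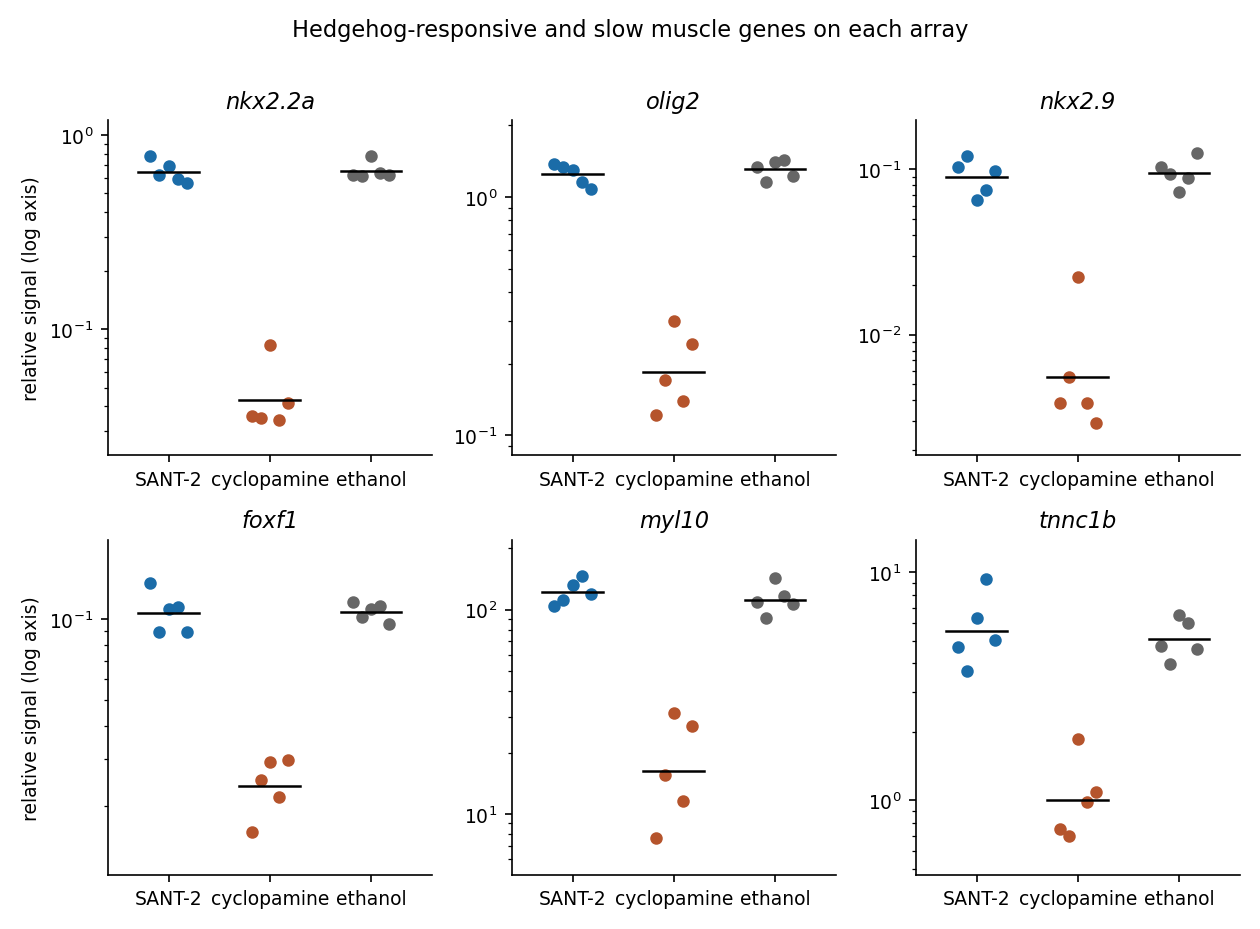
Relative signal of 6 hedgehog-responsive and slow muscle genes on each array (log axis), with SANT-2, cyclopamine and ethanol from left to right. Points are arrays and bars are means of the log2 values. The SANT-2 and ethanol points overlap in each panel, and the cyclopamine points lie below both, as for nkx2.2a with 0.569 to 0.781 in SANT-2, 0.0341 to 0.0831 in cyclopamine and 0.612 to 0.782 in ethanol embryos.

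Slow muscle fibres, the earliest fibres of the somite, depend on hedgehog signals from the notochord. myl10, a myosin light chain gene of this muscle, had relative signals of 104, 112, 132, 146 and 119.7 in SANT-2 embryos, 7.62, 15.6, 31.3, 11.6 and 26.8 in cyclopamine embryos and 109, 90.7, 143, 117 and 107 in ethanol embryos. The SANT-2 and ethanol arrays overlapped, with a difference of 0.012 (-0.53 to 0.55). SANT-2 embryos exceeded cyclopamine embryos by 2.79 (2.25 to 3.33; limma, adjusted p = 8.68e-06).

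tnnc1b, a slow troponin C gene, read 4.70, 3.71, 6.34, 9.38 and 5.04 in SANT-2 embryos, 0.746, 0.700, 1.87, 0.985 and 1.09 in cyclopamine embryos and 4.74, 3.97, 6.53, 5.99 and 4.64 in ethanol embryos, a SANT-2 minus ethanol difference of 0.043 (-0.47 to 0.55). The slow myosin heavy chain gene smyhc1 varied more, with 1.04, 0.627, 2.30, 1.65 and 0.856 in SANT-2 embryos and 1.01, 0.861, 1.36, 1.47 and 0.836 in ethanol embryos. Its interval of -1.21 to 0.91 was the one of the 7 tested slow muscle genes that did not lie within a 2-fold change. On slides 1 to 4 its difference was 0.15, -0.18, 0.17 and 0.035. The interval pools the spread of all groups, and the cyclopamine arrays ran from 0.0310 to 0.665. Its width is thus not that of the SANT-2 and ethanol arrays alone. prox1a, a homeobox gene needed for slow fibre differentiation, differed by -0.048 (-0.21 to 0.12). None of the 7 tested slow muscle genes had an unadjusted p under 0.05, 4 were higher and 3 lower, and their median was 0.012. Of these 7 genes 5 were higher in SANT-2 than in cyclopamine embryos (1.43% of all tested genes were), and 6 were lower in cyclopamine than in ethanol embryos (1.73% of all tested genes were), each at an adjusted p under 0.05. The slow muscle list too was chosen with earlier results of these data known, so its counts are a description.

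**Figure D3:**
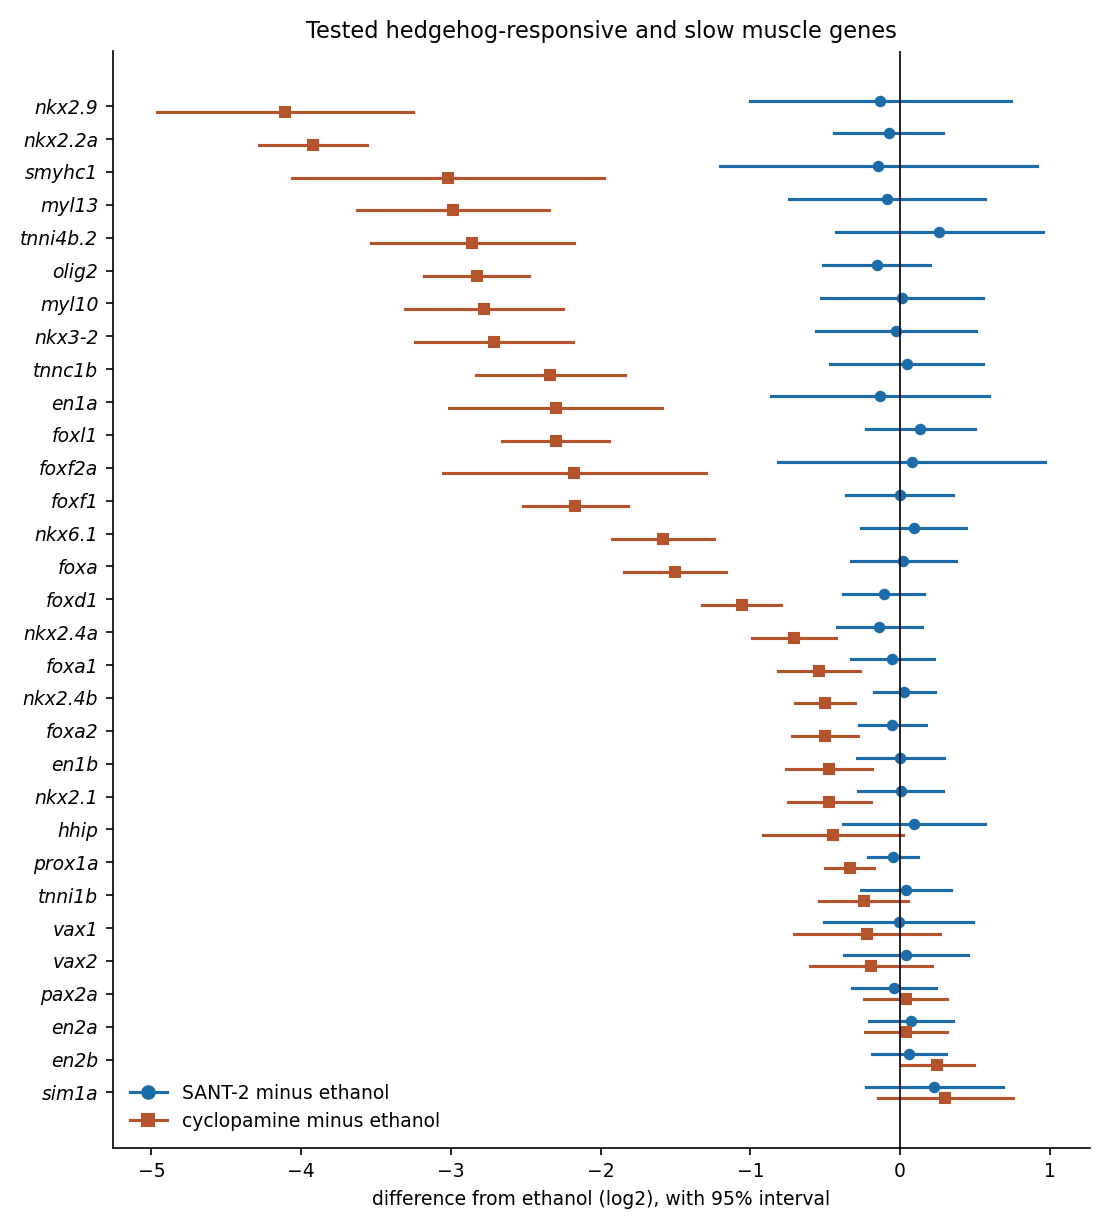
Differences from ethanol (log2) with 95% intervals for the tested hedgehog-responsive and slow muscle genes, ordered by the cyclopamine difference. Blue circles are SANT-2 minus ethanol and orange squares cyclopamine minus ethanol, which share the 5 ethanol arrays. The SANT-2 intervals include 0, with olig2 at -0.16 and sim1a at 0.23, while nkx2.2a reaches -3.92 under cyclopamine.

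The same reading was taken over every gene that cyclopamine changed against ethanol. These comparisons share the ethanol arrays, so the values are set side by side only. The genes were also chosen on the cyclopamine arrays, so the direction of SANT-2 minus cyclopamine in them was largely set by that choice, and its counts are a description. For the 195 genes lower under cyclopamine, the median cyclopamine difference was -0.73 and the median SANT-2 difference -0.051, with SANT-2 values from -0.62 to 0.32. None of them passed for SANT-2. For 188 of the 195 the cyclopamine estimate lay outside the 95% interval of the SANT-2 difference. That count takes the cyclopamine estimate as fixed, though it has an error of its own. The genes were also chosen for a small p of that estimate, which favours large ones, so the count is a description. In the direct comparison, 143 of the 195 were higher in SANT-2 than in cyclopamine embryos and 0 were lower. For the 57 genes higher under cyclopamine the medians were 0.14 for SANT-2 and 0.48 for cyclopamine. Of these 57 genes 12 were lower in SANT-2 than in cyclopamine embryos. With the same limits, 44 cyclopamine estimates lay outside the SANT-2 interval. For the other 13 of these 57 genes the cyclopamine estimate lay inside the SANT-2 interval.

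Some of the genes with the largest falls under cyclopamine were outside the hedgehog lists. hspb9l had relative signals of 1.04, 0.628, 0.895, 1.52 and 1.3 in SANT-2 embryos, 0.0415, 0.0334, 0.0727, 0.0562 and 0.0342 in cyclopamine embryos and 1.1, 0.760, 0.961, 1.07 and 1.16 in ethanol embryos. The groups of SANT-2 and ethanol overlapped (difference 0.069, -0.48 to 0.61), and SANT-2 exceeded cyclopamine by 4.53 (3.99 to 5.07; limma, adjusted p = 3.93e-08). fhl1a and actc2, a LIM domain gene and an actin gene, differed from ethanol by -0.14 (-0.76 to 0.49) and 0.031 (-0.43 to 0.49) and from cyclopamine by 3.02 and 2.75. In all, 180 genes differed between the 2 compounds at an adjusted p under 0.05, 161 higher and 19 lower in SANT-2 embryos. Since genes bright under cyclopamine alone were not tested, the filter can tilt this split towards genes higher in SANT-2 embryos. The count of 180 came to 53 in a fit of the 10 SANT-2 and cyclopamine arrays alone and to 86 without the slide block. It was 110 when SANT-2 array 1 was left out and 118 when SANT-2 array 4 was left out. One pair of compounds was compared, so p-values were adjusted over genes only.

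Although no gene passed, the genes with the smallest unadjusted p and the same direction on every slide are given for reference. lingo3a, a gene of the family of leucine-rich repeat and immunoglobulin domain membrane proteins, had relative signals of 0.0328, 0.0374, 0.0421, 0.0284 and 0.0195 in SANT-2 embryos and 0.0125, 0.0124, 0.0330, 0.0120 and 0.0122 in ethanol embryos. SANT-2 arrays were above 4 of the 5 ethanol arrays, and ethanol array 3, on slide 2, lay inside the SANT-2 range. The difference was 0.87 ± 0.19 (SE; 95% interval 0.47 to 1.26; adjusted p = 0.9997, limma). On slides 1 to 4 it was 1.40, 0.27, 1.24 and 0.68. The probe was well above background on 5 SANT-2 arrays and 3 of the 5 ethanol arrays, so the gene was tested only through the group in which it is higher, and the difference is a description.

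abcg2d, a member of the ABCG2 family of membrane pumps, read 0.0407, 0.0663, 0.0467, 0.0461 and 0.0390 in SANT-2 embryos and 0.0234, 0.0204, 0.0449, 0.0204 and 0.0205 in ethanol embryos. Here too ethanol array 3 alone among the ethanol arrays lay within the SANT-2 range. The difference was 0.78 (0.40 to 1.17; unadjusted p = 0.000535, adjusted p = 0.9997, limma), with 0.90, 0.31, 1.18 and 0.93 on slides 1 to 4. esr2b, an oestrogen receptor beta gene, read 0.223, 0.183, 0.213, 0.0686 and 0.0543 in SANT-2 embryos and 0.0863, 0.0448, 0.153, 0.0469 and 0.0344 in ethanol embryos. Its groups overlapped and its slide values ran from 0.36 on slide 2 to 1.84 on slide 1, for a difference of 0.88 (0.37 to 1.38). The other 7 higher genes of this ranking were fam169aa (0.30), the RNA-binding protein gene stau2 (0.29), spata2 (0.56), hspb11 (0.61), rabl3 (0.31), igsf21a (0.76) and impa2, an inositol monophosphatase gene (0.41).

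Among lower genes, hs2st1a, a heparan sulfate sulfotransferase gene, had relative signals of 0.0801, 0.0704, 0.0559, 0.0660 and 0.0880 in SANT-2 embryos and 0.0922, 0.124, 0.0872, 0.0882 and 0.0962 in ethanol embryos. The groups overlapped by ethanol array 3 and SANT-2 array 5, and the difference was -0.36 (-0.59 to -0.14; unadjusted p = 0.00339, adjusted p = 0.9997, limma). smg5, a gene of nonsense-mediated decay, read 0.196, 0.199, 0.180, 0.196 and 0.219 in SANT-2 embryos and 0.250, 0.241, 0.242, 0.251 and 0.226 in ethanol embryos. All 5 SANT-2 arrays lay below all 5 ethanol arrays, with a difference of -0.28 (-0.46 to -0.11). Groups that did not overlap were found for 14 of the 11269 genes (0.124%), 9 with SANT-2 above and 5 with SANT-2 below, and 0% of genes passed the adjusted threshold. figla, an oocyte transcription factor gene and the largest of the 14, was chosen after its values were seen. Its probe was well above background on 5 SANT-2 arrays and 3 of the 5 ethanol arrays. The gene was thus tested only through the group in which it is higher, and its difference of 0.80 is a description.

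The ranking of lower genes also held alpi.2, an intestinal alkaline phosphatase gene (-0.37), smc3 of the cohesin complex (-0.28), lemd3 of the inner nuclear membrane (-0.37), loxl5b (-0.35), the aquaporin gene aqp10a and 3 genes of extracellular signalling. spry2, a feedback inhibitor of receptor tyrosine kinases, had relative signals of 0.642, 0.578, 0.386, 0.459 and 0.599 in SANT-2 embryos and 0.694, 0.679, 0.636, 0.679 and 0.726 in ethanol embryos, a difference of -0.32 (-0.56 to -0.089) with overlapping groups. sfrp1b, a secreted Wnt antagonist, differed by -0.54 (-0.93 to -0.16), and fzd8b, a Wnt receptor, by -0.58 (-1.03 to -0.13). The aqp10a probe was well above background on 5 ethanol arrays and 2 of the 5 SANT-2 arrays, so the gene was tested only through the group in which it is higher, and its difference of -0.62 is a description. None of the 20 genes changed sign under the 5 other scalings tried. The genes were chosen for a small p and 1 sign on every slide. Between the scalings the median difference of all tested genes ran only from -0.0093 to 0.037. A change of sign was thus unlikely in advance, and its absence is no support for these genes. Cyclopamine minus ethanol, which shares the ethanol arrays, had the same sign for each of the 20 genes. It was small for abcg2d (0.15) and alpi.2 (-0.0090). It passed for fam169aa (0.35), impa2 (0.48), hs2st1a (-0.47) and aqp10a (-0.90; limma, adjusted p = 0.0259, 0.0474, 0.0232 and 0.0445). None of the 20 passed for SANT-2 minus cyclopamine, so none is shown to be particular to SANT-2. The cause was not tested.

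**Figure D4:**
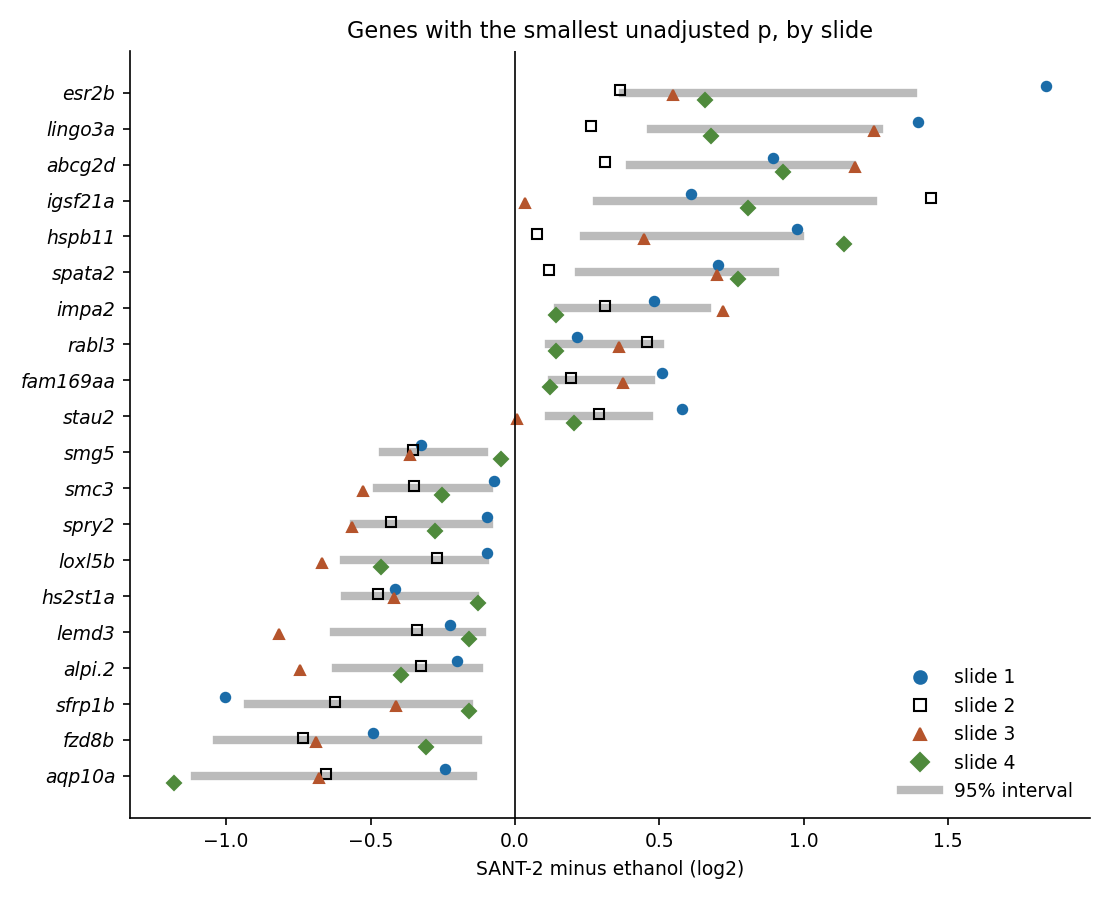
SANT-2 minus ethanol (log2) within each of the 4 slides for the 20 genes with the smallest unadjusted p and 1 sign on every slide, with the 95% interval of the combined estimate in grey. Open squares are slide 2, the dimmest slide, where lingo3a differed by 0.27 against 1.40 on slide 1. The choice of genes fixed that all points of a gene lie on 1 side of 0.

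The count of genes at an unadjusted p under 0.05 was highest without the dim slide. Without slide 2, which leaves 3 SANT-2 and 4 ethanol arrays, 0 genes had an adjusted p under 0.05, the smallest adjusted p was 0.0888, and 923 genes (8.19%) had an unadjusted p under 0.05, 772 higher and 151 lower in SANT-2 embryos. The smallest p then belonged to abcg2d, at 1.02 (0.72 to 1.33). Next came tlcd5b, a gene named here after its values were seen, at 1.33 (0.91 to 1.76). With all slides, tlcd5b had relative signals of 0.0332, 0.0366, 0.0321, 0.0395 and 0.0244 in SANT-2 embryos and 0.0145, 0.0140, 0.0398, 0.0121 and 0.0113 in ethanol embryos. Ethanol array 3 was above all 5 SANT-2 arrays and the other 4 ethanol arrays were below them, and the difference was 0.92 (0.38 to 1.45; adjusted p = 0.9997, limma), with 1.22, -0.22, 1.70 and 1.11 on slides 1 to 4.

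The share of higher genes among those with an unadjusted p under 0.05 differed between scalings and between levels of signal. Among the 2560 genes under -4 on the log2 scale, 98 were higher and 17 lower at that p, with a median SANT-2 minus ethanol difference of 0.077, and 62 were higher after quantile normalization. Among the 123 genes brighter than 6 on the log2 scale, 29 (23.6%) were higher at an unadjusted p under 0.05 and 0 lower, with a median SANT-2 minus ethanol difference of 0.13. After quantile normalization the median of the same 123 genes was -0.0026 and 0 of them were higher at that p. Scaled by the 75th percentile, cyclopamine minus ethanol had medians of 0.066 for the 2560 dim genes and 0.21 for the 123 bright ones. These comparisons share the ethanol arrays, and the shifts were not particular to SANT-2. Over all tested genes the share of higher genes was 71.1% with the 75th percentile, 55.3% with the median, 46.3% with quantile normalization and 46.4% in the authors' deposited table. It was 81% (349 against 82 genes) with the background correction fitted on 500 quantiles and 100% (13 against 0) with that fitted on all spots. The cause of these shifts was not tested. The keratin genes krt4 and krt8 of the outer skin belong to the bright end, with differences of 0.23 (-0.055 to 0.51) and 0.14 (-0.073 to 0.36).

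**Figure D5:**
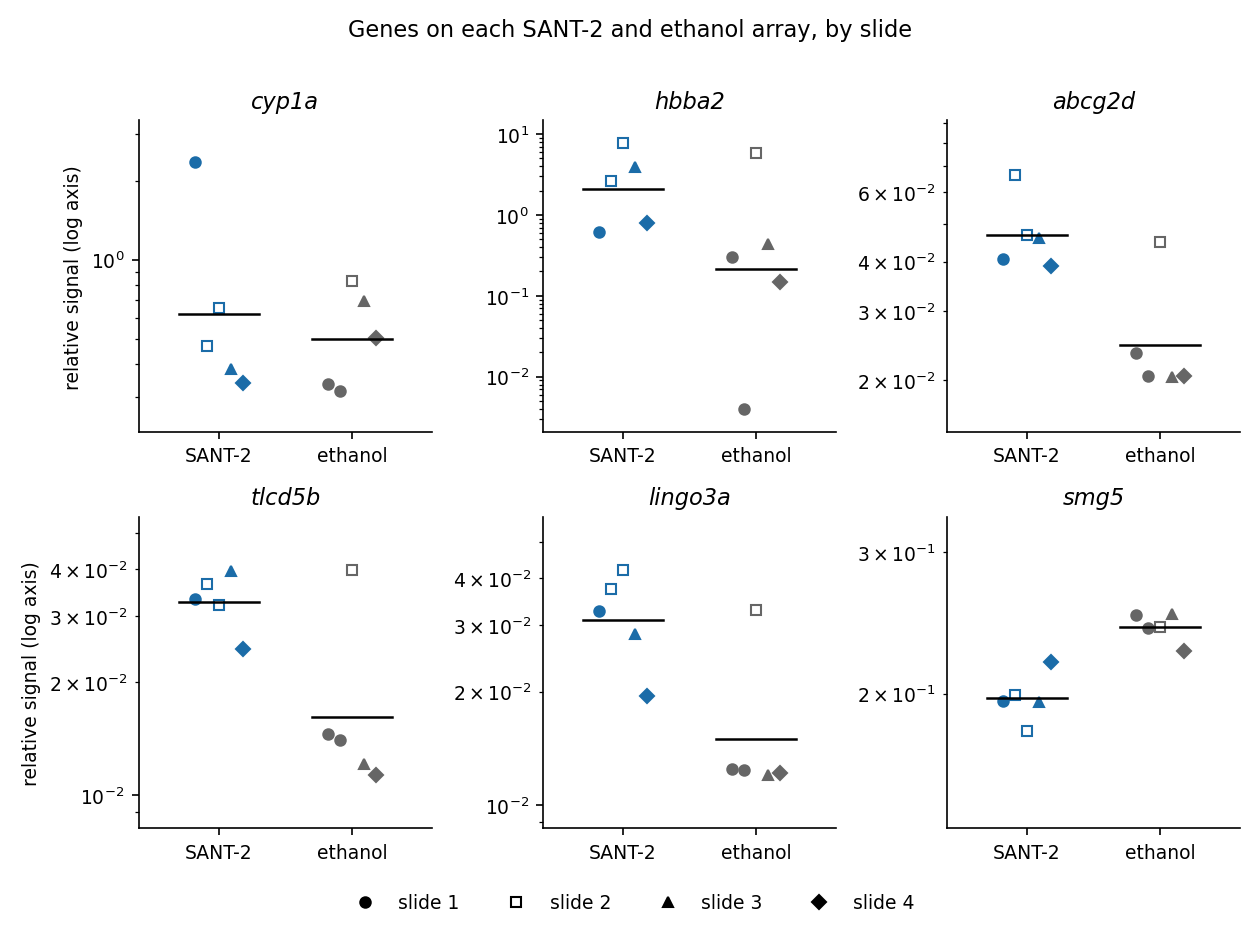
Relative signal (log axis) of 6 genes on each SANT-2 array, left, and each ethanol array, right, with the shape of a point giving its slide and bars for the means of the log2 values. For cyp1a the SANT-2 array of slide 1 stands at 2.36 above the others, for hbba2 the ethanol arrays span 0.00394 to 5.84, for abcg2d, tlcd5b and lingo3a the ethanol array of slide 2 (open square) lies far above the other ethanol arrays, and for smg5 the groups do not overlap.

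Genes that respond to foreign chemicals were examined next. cyp1a, a cytochrome P450 gene induced through the aryl hydrocarbon receptor, read 2.36, 0.468, 0.653, 0.382 and 0.340 in SANT-2 embryos and 0.335, 0.318, 0.828, 0.695 and 0.505 in ethanol embryos. SANT-2 array 1 was the highest of the 10 and the other 4 SANT-2 arrays lay within the ethanol range. The difference was 0.27 (-0.70 to 1.24), with 2.85, -0.58, -0.86 and -0.57 on slides 1 to 4. Only slide 1 was positive, and the interval did not exclude a 2-fold rise. ahr2, the main receptor gene of this pathway in zebrafish, differed by 0.091 (-0.17 to 0.35), and nqo1, a quinone reductase gene, by -0.027 (-0.18 to 0.13). Of the 16 tested genes of this list 0 had an unadjusted p under 0.05, 9 were higher and 7 lower, with a median of 0.037.

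Of 25 other tested genes of foreign compound metabolism and transport, 19 were higher and 6 lower (6596 and 4673 of all tested genes). Their median was 0.080, beside 0.025 for all tested genes. At an unadjusted p under 0.05, 1 was higher and 0 were lower. The one was cyp2k6, a cytochrome P450 gene, with relative signals of 0.345, 0.889, 0.835, 0.198 and 0.191 in SANT-2 embryos and 0.152, 0.109, 0.630, 0.198 and 0.148 in ethanol embryos. The groups overlapped and the values on slides 1 to 4 were 1.42, 0.45, 0.0019 and 0.37, largest on slide 1. Its difference was 0.63 (0.11 to 1.14; unadjusted p = 0.0200, adjusted p = 0.9997, limma). Of 29 tested heat shock and protein folding genes, 2 were higher and 1 lower at that p, the lower one being hspa9, a mitochondrial chaperone gene (-0.30, -0.57 to -0.032). Among 20 oxidative stress genes 0 were higher or lower at that p (median 0.016), and among 18 genes of p53 and apoptosis 1 was higher, casp9, an initiator caspase gene (0.21, 0.0097 to 0.40; median of the list 0.071). Of 25 cell cycle genes 0 had an unadjusted p under 0.05 (median -0.030), and likewise 0 of 19 genes of sterol synthesis (median 0.022).

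Tissue markers were read the same way, with higher and lower again meaning an unadjusted p under 0.05 and no gene passing after adjustment. Of the 26 tested genes of fast and general muscle 0 had an unadjusted p under 0.05, with a median of 0.074, a mean on slide 2 of -0.70 and means of 0.23 to 0.39 on the other slides. Of 17 floor plate and notochord genes 1 was lower, loxl5b, a lysyl oxidase gene (relative signals 0.490, 0.533, 0.387, 0.244 and 0.244 in SANT-2 and 0.517, 0.530, 0.547, 0.387 and 0.337 in ethanol embryos), and the median was -0.051. Of 23 eye and lens genes 2 were higher, the lens crystallin genes crygmx (0.49, 0.14 to 0.84) and crybb1l2 (0.41, 0.040 to 0.78), and the median was 0.013. Of 15 dorsal neural tube and neural crest genes 1 was higher, pts, an enzyme of pteridine synthesis (0.40, 0.11 to 0.69). Of 9 myeloid genes 1 was higher, mpeg1.1, a macrophage gene (0.35, 0.029 to 0.66). Of 15 germ cell and maternal genes 1 was lower, ddx4, the vasa helicase gene of germ cells (-0.26, -0.49 to -0.043), and of 43 genes of signalling feedback 1 was lower, the spry2 gene above. The lists of neuron, motor neuron, heart, vascular, erythroid, endoderm, kidney and cilia, epidermis, somite clock and extracellular matrix genes held 0 genes with an unadjusted p under 0.05. Each of these counts is to be read against the 2.49% and 1.01% of all tested genes that were higher and lower at that p.

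A difference of at least 2-fold in the estimate was seen for 7 genes, 6 higher and 1 lower in SANT-2 embryos. The largest was hbba2, an adult beta globin gene, named after its values were seen. Its relative signals were 0.614, 2.60, 7.78, 3.96 and 0.799 in SANT-2 embryos, 0.00564, 1.11, 13.6, 3.68 and 0.456 in cyclopamine embryos and 0.300, 0.00394, 5.84, 0.440 and 0.147 in ethanol embryos. The arrays of each group were scattered over a wide range, and the difference of 2.24 had an interval of -0.54 to 5.02. The other 6 carry no gene symbol here and are not described.

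For 7 genes the call of well above background was made on 4 or 5 SANT-2 arrays and on no more than 1 ethanol array, and for 10 genes the reverse held. In none of these 17 was the probe below that limit on all 5 arrays of a group. nceh1b.1, one of the 7 of them with a symbol, had relative signals of 0.0127, 0.0150, 0.00659, 0.00643 and 0.00940 in SANT-2 embryos and 0.0119, 0.0301, 0.0327, 0.0121 and 0.0114 in ethanol embryos. Its probe was well above background on 1 SANT-2 array and 4 ethanol arrays, and since it was chosen for that, no difference is given. Over the slides, 701 genes (6.22%) were higher and 438 (3.89%) lower in SANT-2 embryos on all 4.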

How the data were processed

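Per the file headers, the deposited scanner files come from Agilent Feature Extraction 10.1.1.1 and hold background-subtracted Cy3 intensity for each spot, with flags for spots well above background and for outliers. The deposited table of the authors holds normalized log2 values and served as an alternative. Intensities were taken to log2, outlier-flagged spots (at most 0.121% per array) were left out, and each array was shifted by its own 75th percentile over non-control spots. Spots of a probe were averaged and, for 37 genes with several probes, the brightest was kept. Of 14694 probes 9185 matched 1 symbol in a reference table (assembly GRCz12tu, names only) and 5509 none. All 20 arrays, 4 groups and slide entered 1 limma 3.58.1 model (R 4.3.3), with Benjamini-Hochberg adjustment over the tested genes and 95% intervals from the moderated fit. The steps were tested on simulated data. The p-values rest on the spread between replicates within groups, pooled over the 4 groups after slide and moderated across genes. The labels call the 5 replicates of a group independent.

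The members, gene lists and tests were chosen with earlier results of these data known. Named genes are the 10 smallest unadjusted p in each direction with 1 sign on every slide, genes of the hedgehog, slow muscle and aryl hydrocarbon lists, the 2 smallest p of other lists, the 10 largest cyclopamine changes, and genes well above background on 4 or 5 arrays of 1 group and at most 1 of the other. Not all of these are printed, and figla, tlcd5b and hbba2 were added after their values were seen. Alternatives covered block, scaling, background, filter, spread, array weights and each array or slide left out. The planned background-correction alternative named mean spot signals, which were not used here, and median spot signals took their place.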

Additional observations from a re-analysis of the deposited data

Results flagged for a closer look

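One array lay far from the other 4 of its group in 24 of the 310 groups looked at (2 per gene or measure). The measure is the gap of the farthest array to the next, divided by the range, with 0.71 as the limit, and chance gives about 1 such group in 20. Of the 24, 22 were in the ethanol group, and ethanol array 3, the ethanol array of the dim slide 2, was the far one in 19 of them. The measure takes no account of slide, and slide 2 carried SANT-2 arrays 2 and 3 but only ethanol array 3. A shift of that slide could set ethanol array 3 apart, while the SANT-2 arrays on it would move together. The split between the groups is therefore no measure of their quality, and its cause was not tested.

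Ethanol array 3 was the highest for lingo3a (0.961), abcg2d (0.822), spata2 (0.756), nkx2.2a (0.852), gpr161b (0.771), gsk3ab (0.915), tiparp (0.725), wfikkn1 (0.858), rfx2 (0.818), krt4 (0.835), krt8 (0.822), mcm3 (0.759), bambia (0.776) and tlcd5b (0.802). It was the lowest for ihhb (0.828), gas1b (0.711), pycr1a (0.728), her1 (0.727) and sc5d (0.723). Ethanol array 2 was the highest for hs2st1a (0.720) and the lowest for figla (0.748), and ethanol array 4 the lowest for ift88 (0.857).

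In the SANT-2 group, array 5 was the lowest for mycn (0.975), a proto-oncogene of neural progenitors, with relative signals of 2.52, 2.54, 2.54, 2.57 and 1.21 in SANT-2 embryos and 2.66, 2.98, 2.21, 3.11 and 3.11 in ethanol embryos. Array 5 was the highest for ptgs2a (0.788), a cyclooxygenase gene, with 0.248, 0.260, 0.255, 0.243 and 0.333 in SANT-2 embryos and 0.270, 0.250, 0.300, 0.368 and 0.341 in ethanol embryos.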

How the results depend on the processing

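The count of 0 genes for SANT-2 minus ethanol held under all alternatives, with smallest adjusted p from 0.0888 (without slide 2) to 0.99998. For the 143 tested named genes, 3824 of 3835 values moved by less than the spread between replicates, 11 moved by more, 302 changed sign and 0 passed. Genes with an unadjusted p under 0.05 numbered 123 without the slide block, 920 with array weights, 923 without slide 2, 245 without slide 3, and 247 to 664 with each array left out, with 247 without SANT-2 array 4, 664 without SANT-2 array 2 and 605 without ethanol array 3. Background correction by normexp on all spots collapsed the range of 2 arrays (SD 0.436 and 0.707, against 2.24 or more on the others). With it there were 13 such genes, 6271 intervals within 2-fold, 10 genes between SANT-2 and cyclopamine with a list mean of -0.073, 13 for cyclopamine minus ethanol, and shifts of the median of all genes by -0.57 (SANT-2 minus cyclopamine) and 0.55 (cyclopamine minus ethanol). Refitted on 500 quantiles, chosen after seeing the data, it gave 431 such genes, 11215 intervals, 119 genes with a list mean of 0.74, and 296 for cyclopamine minus ethanol.

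SANT-2 minus cyclopamine counted 86 genes without the block, 53 in a fit of the groups compared, and 110 to 166 with each array left out. Its list mean was 1.38 with probes well above background on all 10 SANT-2 and ethanol arrays, and 1.09 to 1.37 with each array left out. Cyclopamine minus ethanol counted 100 without the block, 158 in its own fit, 409 with array weights, and 158 to 242 with each array left out. For SANT-2 minus ethanol the mean over the 24 tested hedgehog-responsive genes was 0.021 in a fit of the SANT-2 and ethanol arrays alone. This mean ran from -0.064 to 0.055 with each array left out. The difference in probes well above background, -154, ran from -439 to 204 with each array left out. That in the 75th percentile (log2) ran from -0.70 to -0.29, beside -0.43 with all arrays (exact permutation p = 0.222). It was -0.70 without ethanol array 3 (exact permutation p = 0.0317), and that p was 0.190 to 0.444 with each other array left out. The permutation test takes no account of slide. Without ethanol array 3, the dim slide 2 holds SANT-2 arrays 2 and 3 and no ethanol array. The p of 0.0317 thus cannot tell compound and slide apart.

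Whether the replicate numbers of the titles pair the samples cannot be told from these arrays. For each gene the mean of its group was first subtracted from every array. Correlations of these deviations between SANT-2 and ethanol arrays of 1 number were 0.54, -0.00043, 0.69, 0.57 and 0.76. Only the second pair lay on different slides, so number and slide coincide in the others. The deviations of SANT-2 array 2 had correlations of -0.40, -0.33 and -0.38 with those of ethanol arrays 1, 4 and 5. The correlation was 0.52 with ethanol array 3 of its own slide. With a replicate block in place of slide, 0 genes passed (smallest adjusted p 0.454) and 786 had an unadjusted p under 0.05, the paired fit for the other counts giving 206 and 264. The causes of the other shifts were not tested. Having 5 arrays a group, and dim probes, limits what can be seen.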
